A study of Homo sapiens with 23 samples.

Results

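Regions marked by H3K4me3 in the lung cancer line NCI-H23 but holding no called peak of the bromodomain protein BRD2 are described here, with the other histone marks found at them. The regions were obtained by intersecting the H3K4me3 peak lists of both replicate libraries, which gave 21277 intervals. An interval was kept when it overlapped no peak of BRD2, H3K27me3 or H3K9me3 in either replicate, and 4738 of the 21277 intervals (22.3%) passed. The number depends on the lists: it was 8753 with replicate 1 of every target alone, 5677 with replicate 2 alone, and 9379 when only peaks with −log10 q of at least 5 were kept in all lists. They are called BRD2-absent intervals below, where absent means only that no peak was called. The 10408 intervals (48.9%) with a BRD2 peak in both replicates, called BRD2-shared intervals, served for comparison.

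The series holds 23 samples, all from NCI-H23 (H23), a cell line established from a non-small cell lung cancer. ChIP-seq, which sequences DNA fragments precipitated with an antibody, was done for 11 targets with 2 replicate libraries each, and 1 input library was not analysed here. The targets were BRD2 and 10 histone modifications. The labels' treatment protocol names the BET inhibitor JQ1 and its solvent DMSO, but the sample labels do not tie any library to either, so all libraries of a target were taken as 1 group of H23 cells with no stated genotype change. The labels do not say whether replicates came from separate cultures, so the spread between them may be technical. No label places the libraries in batches.

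Trimethylation of lysine 4 of histone H3 marks the promoters of active genes and of genes poised for activity. BRD2 belongs to the BET family, whose bromodomains bind acetylated lysines, with a preference for acetylated histone H4 tails. Acetylation of H4 at lysines 5, 8 and 12 and of H3 at lysine 27 accompanies active promoters, and H3K27ac also marks active enhancers. H3K4me1 is found at enhancers and on the flanks of promoters, and H3K36me3 over the bodies of transcribed genes. H3K27me3 and H3K9me3 belong to Polycomb silencing and to heterochromatin, and intervals with their peaks were left out.

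The H3K4me3 lists held 21580 and 22025 peaks, and the lists of the 7 marks compared here held between 71837 and 224726. Read numbers are not part of the lists, so the depth of each library is unknown. The BRD2 lists were 56830 and 45730 peaks long. Of these peaks, 64.7% and 28.1% had a q value above 0.05, the largest shares among the lists. A comparison of 2 libraries with 2 libraries cannot give an exact two-sided p below 0.333, so no p is given. Each share is printed for both libraries, and a difference is read against the standard deviation (SD) of the 2 library values. Wilson 95% intervals treat intervals as independent and cover counting error only.

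BRD2 and the repressive marks chose the intervals, and the following counts are a description. No BRD2 peak overlapped 6925 of the 21277 intervals (32.5%) in either list. Among those 6925, H3K27me3 overlapped 2049 and H3K9me3 457, with 319 holding both, and removing them left the 4738 BRD2-absent intervals. BRD2 was called in 1 list only at 3944 intervals, of which 362 had it in replicate 1 and 3582 in replicate 2. Repressive peaks were also present at 649 of the 10408 BRD2-shared intervals, which were not filtered for them.

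Just outside the rule on BRD2 lay the intervals with BRD2 in 1 list, whose BRD2 peaks had lower significance than those of BRD2-shared intervals. At the 362 intervals with BRD2 in replicate 1 only, the median −log10 q of the strongest BRD2 peak was 1.06 and 74.9% had a q above 0.05. The corresponding values in the same list at BRD2-shared intervals were 3.81 and 18.1%. At the 3582 intervals with BRD2 in replicate 2 only, the median −log10 q was 2.86 and 12.3% had a q above 0.05, against 12.2 and 1.28% at BRD2-shared intervals. Just inside the rule, 58 BRD2-absent intervals lay within 100 bp of a BRD2 peak, 282 within 500 bp and 508 (10.7%) within 1000 bp. Their median distance to the nearest BRD2 peak was 9538.5 bp.

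BRD2-absent intervals were short. Their median width was 685 bp, with quartiles of 399 and 1299 bp, whereas the median of BRD2-shared intervals was 2220 bp, with quartiles of 1649 and 2945 bp. The uncut H3K4me3 peaks showed the same order: median widths at BRD2-absent intervals were 826 bp in replicate 1 and 801.5 bp in replicate 2, against 2308 and 2282.5 bp. Intervals under 500 bp made up 36.5% of the BRD2-absent and 2.72% of the BRD2-shared group. Intervals of 2000 bp or more made up 10.9% and 60.02%. In all, BRD2-absent intervals covered 4.51 Mb of the genome and BRD2-shared intervals 25.2 Mb.

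**Figure D1:**
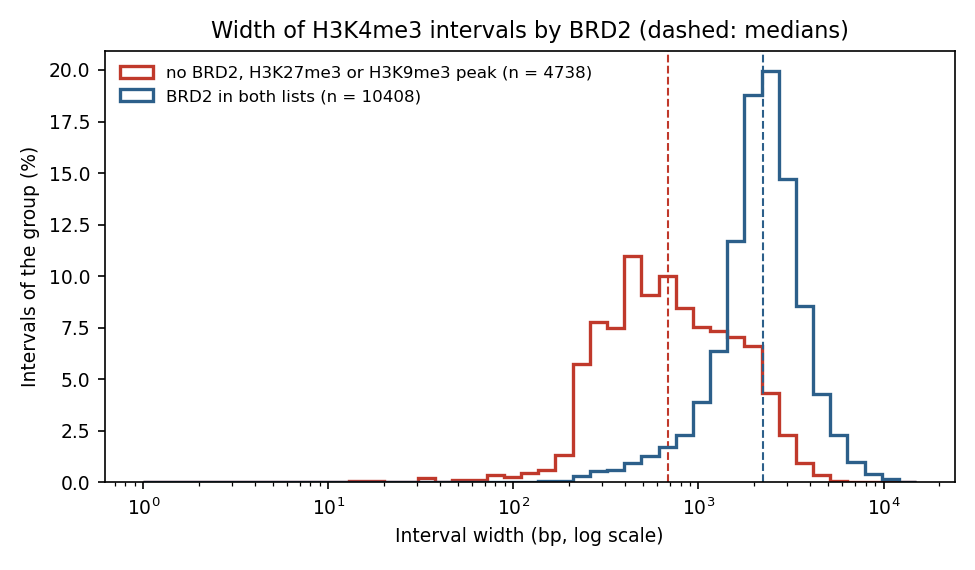
Share of the intervals in each group (percent, y axis) by interval width (bp, log scale, x axis), for 4738 BRD2-absent intervals (red) and 10408 BRD2-shared intervals (blue), with dashed lines at the medians. The BRD2-absent distribution is broad with its median at 685 bp, and the BRD2-shared one peaks near its median of 2220 bp.

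H3K4me3 itself was weaker at them. The authors' fold enrichment of the H3K4me3 peak, a ratio to the peak caller's background, had a median of 15.2 in replicate 1 (quartiles 5.54 and 57.4) and 15.4 in replicate 2 (quartiles 5.89 and 55.6). The medians at BRD2-shared intervals were 79.4 and 89.1. The upper quartiles of BRD2-absent intervals thus lay below the BRD2-shared medians in both libraries. Width and H3K4me3 strength were measured on the peaks that chose the intervals, and a short interval also offers fewer bases for a BRD2 peak to meet, so neither is tested here.

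Every acetylation mark was present at a smaller share of BRD2-absent than of BRD2-shared intervals, in both libraries of each mark. H4K5acK8ac, read with an antibody to H4 carrying both acetyl groups, overlapped 58.4% of BRD2-absent intervals in replicate 1 (95% interval 57.0 to 59.8) and 67.2% in replicate 2 (65.9 to 68.6). The shares over all 21277 intervals were 83.9% and 88.0%, and those of BRD2-shared intervals were 99.9% and 100%. The mean difference was −37.1 ± 6.21 percentage points (SD, n = 2 libraries). H3K27ac gave a similar picture, with 51.6% (50.1 to 53.0) and 61.0% (59.6 to 62.3) of BRD2-absent intervals, 78.3% and 82.8% of all intervals, and 99.1% and 99.8% of BRD2-shared intervals. Its mean difference was −43.2 ± 6.17 points (SD, n = 2 libraries).

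Antibodies to single acetylated H4 residues gave differences of the same size or larger. H4K5ac was found at 57.5% and 55.4% of BRD2-absent intervals, 84.3% and 83.7% of all intervals, and 99.8% and 99.9% of BRD2-shared intervals, a mean difference of −43.4 ± 1.55 points (SD, n = 2 libraries). H4K12ac was found at 45.7% and 44.2% of BRD2-absent intervals, 81.5% and 80.9% of all intervals, and 99.2% and 99.3% of BRD2-shared intervals, a difference of −54.3 ± 1.10 points (SD, n = 2 libraries). H4K8ac was the least frequent, at 37.9% and 18.4% of BRD2-absent intervals, 76.4% and 55.4% of all intervals, and 98.2% and 81.9% of BRD2-shared intervals. Its 2 libraries differed widely from each other in both groups, and 224726 peaks were listed in the first and 116852 in the second. The difference between groups in the share overlapping a peak was nevertheless close in both, −60.3 and −63.5 points (mean −61.9 ± 2.23, SD, n = 2 libraries). Other measures of H4K8ac differed more between the libraries. They gave −31.9 and −18.3 points for bases covered and −47.4 and −22.2 points at the midpoint. For all 5 acetylation marks the difference in the share overlapping a peak was more than 5 times its SD, which is taken at intervals chosen with both replicates. That SD varies only the library of the mark and leaves out the spread of the H3K4me3 and BRD2 lists. With replicate 1 of every target alone, the differences were smaller, at −27.1 points for H4K5ac, −34.9 for H4K12ac and −40.9 for H4K8ac. Replicate 2 of every target alone gave −43.1, −52.0 and −54.5 points in the same order. The values with replicate 1 and with replicate 2 thus lay further apart than the SDs printed here.

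**Figure D2:**
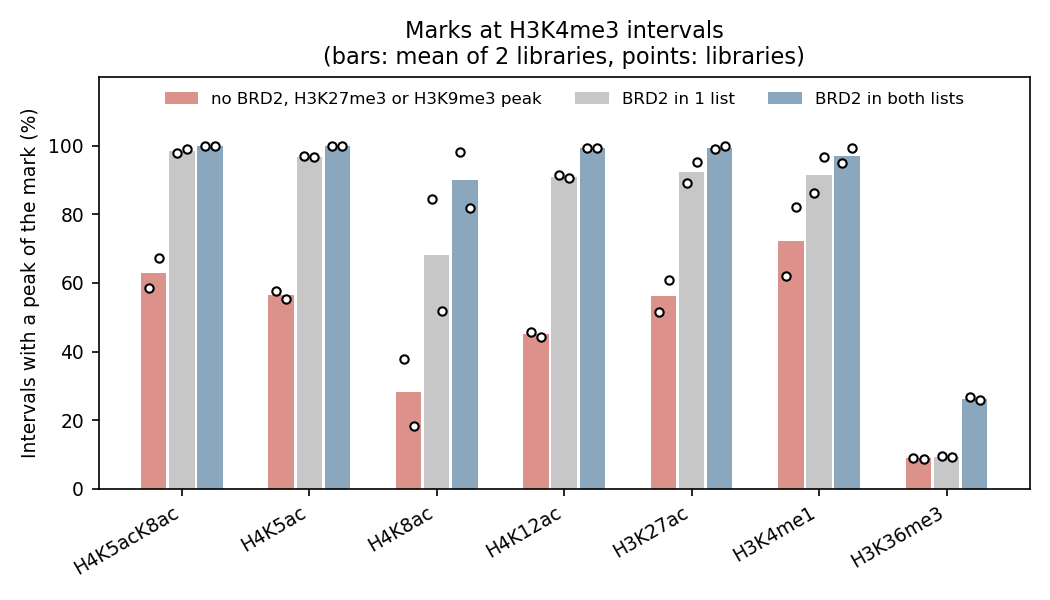
Percent of intervals overlapping a peak of each mark (y axis) for the 7 marks (x axis), with bars at the mean of 2 libraries and points for the libraries, in BRD2-absent intervals, intervals with BRD2 in 1 list and BRD2-shared intervals. H4K8ac has the lowest acetylation share at BRD2-absent intervals (37.9% and 18.4%), and H3K36me3 is the mark with the lowest share in every group.

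Among BRD2-absent intervals the order of the acetylation marks could only partly be resolved. H4K5acK8ac (62.8% ± 6.25), H4K5ac (56.4% ± 1.52) and H3K27ac (56.3% ± 6.64; SD, n = 2 libraries each) did not differ beyond their spread. H4K12ac, at 45.0% ± 1.06, lay below all 3 in both libraries, and H4K8ac, at 28.2% ± 13.8, lay below H4K12ac in both. Shares of different marks also depend on how many peaks each list holds. The longest of these lists, the first of H4K8ac, gave a lower share than every H4K5ac, H4K5acK8ac, H4K12ac or H3K27ac list.

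Intervals with BRD2 in 1 list were intermediate for acetylation. They were also intermediate in width (median 1713.5 bp) and in H3K4me3 fold enrichment (medians 65.9 and 73.9). Repressive peaks were not filtered out of them. H3K27ac was at 89.2% and 95.2% of them, and H4K5acK8ac at 97.7% and 99.0%. H4K12ac overlapped 91.4% and 90.6%, and H4K8ac 84.3% and 51.7%. Each of these lies above the BRD2-absent and below the BRD2-shared share in the same library. Intervals without BRD2 but with a repressive peak numbered 2187. Rarer there than at BRD2-absent intervals were H3K27ac (18.0% and 26.7%), H4K5acK8ac (38.2% and 56.4%) and H4K5ac (46.2% and 45.0%). H4K12ac was more frequent, at 56.5% and 55.5% against 45.7% and 44.2%. H4K8ac, at 41.9% and 16.5%, was higher in replicate 1 and lower in replicate 2. The median width of these 2187 was 1213 bp, and widths were not matched.

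The acetylation marks at 1 interval varied from none to all. Counting a mark only where both of its libraries had a peak, 1477 BRD2-absent intervals (31.2%) had no acetylation mark, 619 had 1, 584 had 2, 778 had 3, 881 had 4 and 399 (8.42%) had all 5. Over all 21277 intervals, 11.6% had none and 49.8% had all 5. The overall shares with 1, 2, 3 and 4 marks were 4.87%, 4.80%, 7.73% and 21.3%. The last was near the 18.6% of BRD2-absent intervals with 4. Among BRD2-shared intervals, 8399 (80.7%) had all 5 and 1 had none. Width rose with the number of marks at BRD2-absent intervals, from a median of 465 bp with no mark to 1133 bp with all 5. H3K4me3 fold enrichment also differed, with medians of 8.53 and 7.94 in the replicates with no mark and 30.4 and 39.7 with all 5. The median width of the 399 fully acetylated BRD2-absent intervals was thus below the BRD2-shared median of 2220 bp.

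**Figure D3:**
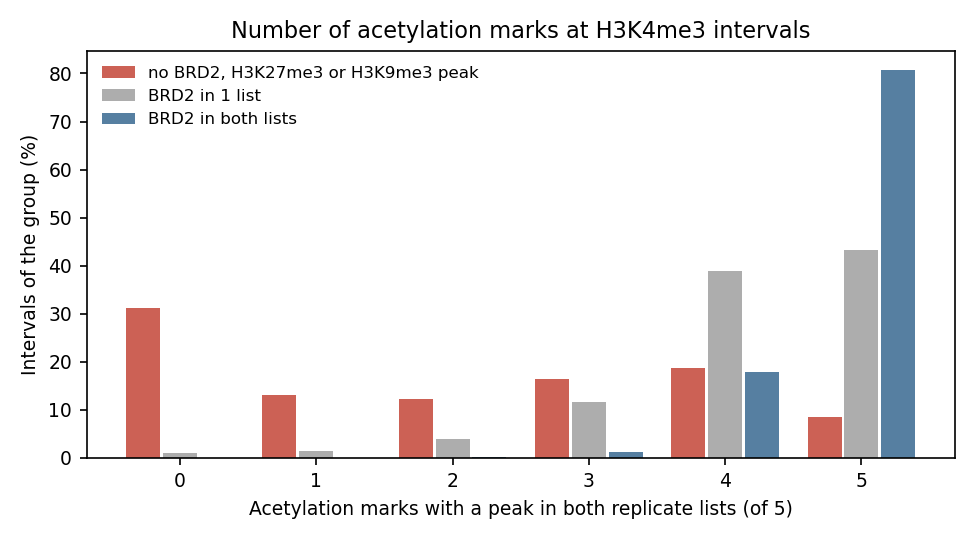
Percent of the intervals in each group (y axis) by the number of acetylation marks, of 5, with a peak in both replicate lists (x axis). BRD2-absent intervals (red) are spread from 0 marks (31.2%) to 5 (8.42%), while 80.7% of BRD2-shared intervals (blue) have all 5.

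No acetylation peak in any of the 10 acetylation lists was found at 832 BRD2-absent intervals (17.6%), against 6.06% of all intervals and 0 of 10408 BRD2-shared intervals. These 832 had a median width of 440 bp and median H3K4me3 fold enrichments of 7.61 and 7.17. H3K4me1 was present at 25.4% and 48.6% of them and H3K36me3 at 7.69% and 7.09%. A further restriction to intervals with none of the 7 marks left 420 (8.86%), against 2.59% of all intervals. At the other end, 32 BRD2-absent intervals (0.675%) had all 7 marks in both lists, against 10.6% of all intervals and 2047 (19.7%) of BRD2-shared intervals.

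H3K27ac and the H4 marks occurred together. Both H3K27ac libraries had a peak at 2275 BRD2-absent intervals (48.0%, against 76.9% of all intervals), which had a median width of 1079 bp. At least 1 library had one at 64.5%, against 84.2% of all intervals, and the 1682 intervals (35.5%) without H3K27ac in either had a median width of 490 bp. Where H3K27ac was present, H4K5acK8ac overlapped 85.7% and 87.3% and H4K5ac 80.1% and 78.1%. H4K12ac was found at 62.2% and 60.2% of the same 2275 intervals and H4K8ac at 54.1% and 25.01%. The shares over all 21277 intervals were 83.9% and 88.0%, 84.3% and 83.7%, 81.5% and 80.9%, and 76.4% and 55.4% in the same order. Where H3K27ac was absent from both lists, H4K5acK8ac was at 22.1% and 37.9% and H4K12ac at 23.8% and 22.7%. These 1682 intervals also had weaker H3K4me3, with median fold enrichments of 8.30 and 8.71 against 38.1 and 41.0 at the 2275. The 2 sets were not matched for width or H3K4me3 strength. At BRD2-shared intervals with H3K27ac in both lists, H4K12ac was at 99.3% and 99.4%, so the groups also differed within H3K27ac-marked intervals. These BRD2-shared intervals were wider, with a median of 2229.5 bp. Their median H3K4me3 fold enrichment was also higher, 79.7 and 89.4 against 38.1 and 41.0. The comparison within H3K27ac-marked intervals was not matched for either.

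Since wider intervals meet more peaks, the shares were compared at equal width. BRD2-shared intervals were weighted to the widths of the BRD2-absent group over 6 width bins. The differences then became −37.0 ± 6.06 points for H4K5acK8ac, −42.9 ± 1.61 for H4K5ac and −63.3 ± 6.45 for H4K8ac. They were −53.4 ± 1.18 for H4K12ac and −41.1 ± 4.75 for H3K27ac (SD, n = 2 libraries each). Each lay within 1 SD between libraries of its unweighted value. Weighting to the ranks of H3K4me3 fold enrichment, a step added after the data were seen, gave −37.1, −43.2, −64.5, −54.0 and −41.8 points in the same order of marks.

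The gap in acetylation narrowed with width but did not close. In intervals of at most 300 bp, H3K27ac overlapped 39.3% and 48.3% of 731 BRD2-absent intervals and 93.8% and 96.9% of 97 BRD2-shared intervals. In intervals over 2000 bp it overlapped 91.3% and 96.3% of 515 and 99.9% and 99.98% of 6242. H4K5acK8ac rose in the same way, from 36.1% and 43.0% of the narrowest to 89.7% and 93.8% of the widest BRD2-absent intervals. H4K12ac stayed further apart: above 2000 bp it was at 61.9% and 65.2% of BRD2-absent and 99.4% and 99.5% of BRD2-shared intervals. H4K8ac in the same bin was at 56.1% and 19.0%, against 98.7% and 80.6%.

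**Figure D4:**
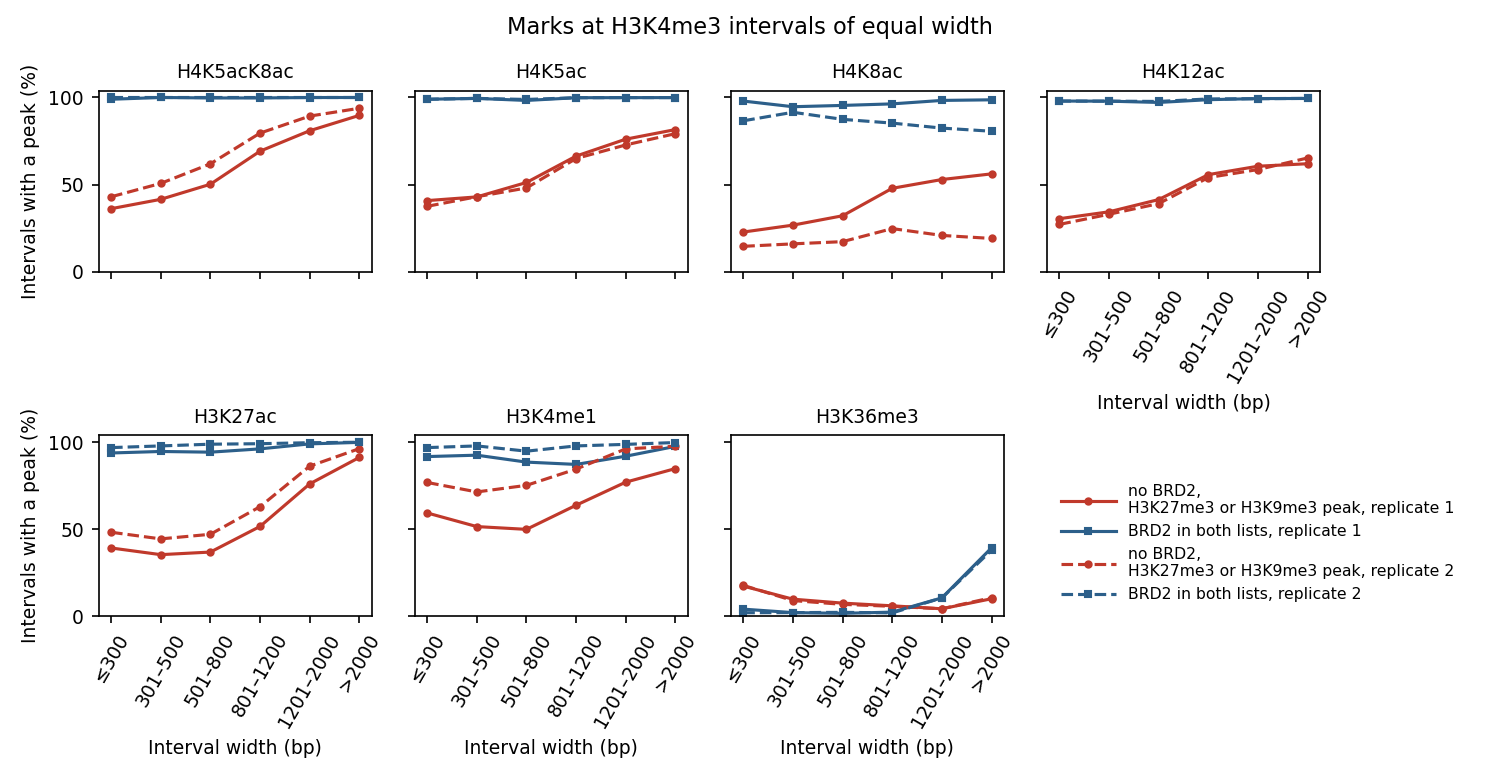
Percent of intervals with a peak of each mark (y axis) in 6 bins of interval width (bp, x axis), with one panel per mark, BRD2-absent intervals in red, BRD2-shared intervals in blue, solid lines for replicate 1 and dashed lines for replicate 2. In the widest bin H3K27ac at BRD2-absent intervals reaches 91.3% and 96.3%, while H4K12ac reaches only 61.9% and 65.2%.

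Strong H3K4me3 intervals without BRD2 nearly all had H3K27ac and H4K5acK8ac, while H4K12ac and H4K8ac were missing from many. Of the BRD2-absent intervals, 223 had a mean percentile of H3K4me3 fold enrichment over 80 among all intervals, as did 3107 BRD2-shared intervals. Their median widths were 2051 and 2535 bp. H3K27ac was at 97.8% and 100% of the 223, and H4K5acK8ac at 98.2% in both libraries, near the 99.9% or more of the 3107. H4K5ac was at 90.1% and 88.8%, against 99.97% in both libraries of the 3107. H4K12ac was at 72.6% and 74.4% against 99.3% in both, and H4K8ac at 73.1% and 21.5% against 98.9% and 76.3%.

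Mark strength separated these strong intervals even where presence did not. The median fold enrichment of the H3K27ac peak was 16.1 and 14.4 at the 223 BRD2-absent and 46.8 and 44.4 at the 3107 BRD2-shared intervals. For H4K5acK8ac the medians were 7.87 and 7.66 against 22.7 and 20.8. H3K36me3 overlapped 10.8% of the 223 in both libraries and 38.4% and 36.4% of the 3107. At the other end, 2194 BRD2-absent and 665 BRD2-shared intervals had a mean H3K4me3 percentile of at most 20. H3K27ac was at 36.01% and 44.9% of those 2194 and at 95.8% and 98.3% of those 665.

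The same weakness of mark peaks held over all intervals where a peak was present. Median H3K27ac fold enrichment was 7.97 and 7.72 at BRD2-absent and 38.9 and 37.0 at BRD2-shared intervals. H4K5acK8ac medians were 6.24 and 6.36 against 22.8 and 21.4, and H4K5ac medians 4.30 and 4.28 against 10.1 and 9.91. H4K12ac had 3.51 and 3.64 against 6.43 and 6.84, and H4K8ac 3.42 and 3.51 against 5.93 and 4.35. Each value is that of the strongest peak meeting the interval, and wider intervals can meet more peaks. These strongest peaks at BRD2-absent intervals still ranked above the middle of their own lists. Their median percentile was 65.4 and 66.1 for H4K5acK8ac and 84.0 and 77.8 for H3K27ac. At BRD2-shared intervals it was 92.1, 91.6, 95.2 and 93.9 in the same order. Fold enrichment was compared only within a library's list.

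H3K4me1 differed less between the groups than any acetylation mark, in both libraries. It overlapped 62.1% and 82.0% of BRD2-absent intervals, 83.9% and 93.9% of all intervals, and 94.9% and 99.2% of BRD2-shared intervals, a mean difference of −24.99 ± 11.1 points (SD, n = 2 libraries). At equal width the difference was −22.3 ± 9.67 points. The share of interval bases under H3K4me1 peaks showed no difference in 1 direction: it was 31.3% against 35.5% in replicate 1 and 55.6% against 51.6% in replicate 2. Its peaks had lower fold enrichment, with medians of 4.91 and 6.78 at BRD2-absent and 5.77 and 9.20 at BRD2-shared intervals.

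H3K4me1 also differed in position. It covered the midpoint of 29.6% and 51.5% of BRD2-absent intervals but only 11.4% and 21.6% of BRD2-shared intervals. At BRD2-shared intervals its cover rose away from the midpoint, to 52.6% and 72.2% at 1000 bp, where it was 26.3% and 42.8% for BRD2-absent intervals. This was tied to width. In intervals of 501 to 800 bp the midpoint was covered less often in the BRD2-absent group, 31.1% and 58.7% against 66.0% and 88.3%. In intervals over 2000 bp it was covered more often, 8.93% and 22.9% against 4.61% and 10.6%.

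**Figure D5:**
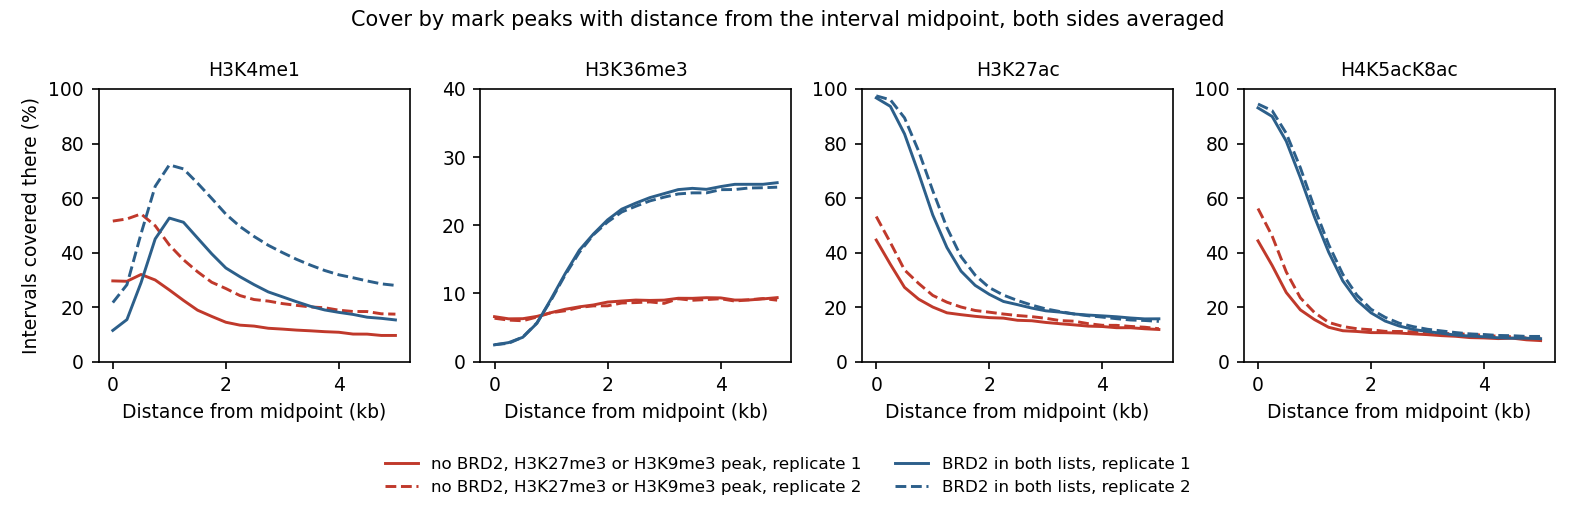
Percent of intervals covered by a peak of H3K4me1, H3K36me3, H3K27ac or H4K5acK8ac (y axis, with its own range for H3K36me3) by distance from the interval midpoint (kb, x axis, both sides averaged), for BRD2-absent (red) and BRD2-shared (blue) intervals, solid for replicate 1 and dashed for replicate 2. H3K4me1 is highest at 500 bp in BRD2-absent (31.9% and 54.2%) and at 1 kb in BRD2-shared intervals, and H3K36me3 reaches 9.38% and 9.002% against 26.2% and 25.6% at 5 kb.

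H3K36me3 was uncommon at H3K4me3 intervals and less common without BRD2. It overlapped 9.08% (8.29 to 9.93) and 8.84% (8.07 to 9.69) of BRD2-absent intervals, 17.0% and 16.4% of all intervals, and 26.7% and 25.9% of BRD2-shared intervals. The difference was −17.4 ± 0.427 points (SD, n = 2 libraries). Intervals with BRD2 in 1 list were at 9.63% and 9.18%, close to the BRD2-absent values. Their median width was larger, 1713.5 bp, and this comparison was not matched for width. At equal width the sign of the difference from BRD2-shared intervals turned, to 1.33 ± 0.128 points higher in BRD2-absent intervals (1.24 and 1.42 in the libraries). In intervals of at most 300 bp, H3K36me3 was at 17.4% and 17.8% of BRD2-absent and 4.12% and 2.06% of BRD2-shared intervals, the latter being 97 intervals. Above 2000 bp the order was the opposite, 10.1% and 10.7% against 39.3% and 38.0%.

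Around the intervals, H3K36me3 was sparser without BRD2. An H3K36me3 peak lay within 5000 bp of the midpoint of 28.1% and 27.7% of BRD2-absent and 66.5% and 66.4% of BRD2-shared intervals. For intervals over 2000 bp these shares were 42.7% and 41.7% against 79.8% and 79.4%. For those of 801 to 1200 bp they were nearly equal, 19.5% in both libraries against 22.5% and 23.2%. At the midpoint itself H3K36me3 was slightly more frequent in BRD2-absent intervals, 6.59% and 6.35% against 2.45% and 2.48%. This too depended on width. In intervals of at most 300 bp the midpoint shares were 16.0% and 16.6% against 2.06% and 1.03%. Above 2000 bp the order was the opposite, 1.36% and 1.55% against 3.78% and 3.84%.

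A minority of BRD2-absent intervals were neighbours of a BRD2-shared interval. Within 1000 bp of one lay 535 (11.3%), with a median width of 378 bp, and the other 4203 had a median width of 732 bp. H3K36me3 was at 43.0% of the 535 in both libraries but at 4.76% and 4.50% of the 4203. H3K4me1 was at 90.1% and 97.4% of the neighbours, against 58.6% and 80.04% of the rest, and H3K27ac at 66.5% and 73.6%, against 49.7% and 59.3%. H4K5acK8ac went the other way, with 42.4% and 43.0% of the neighbours and 60.4% and 70.3% of the rest. With the neighbours left out of the BRD2-absent group, the equal-width difference in H3K36me3 from BRD2-shared intervals was −3.45 points. The BRD2-shared group was left whole, with its own 367 intervals within 1000 bp of another BRD2-shared interval. The 2 groups were thus not filtered alike, and what the positive value above rested on was not tested. The grouping by neighbours was chosen after the data were seen.

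The cutting of peaks into intersections also bears on this group. For 4230 of the BRD2-absent intervals (89.3%), the uncut H3K4me3 peaks in both lists were free of BRD2 and repressive peaks too. For the other 508 the uncut peak met one of them outside the interval, and their median H3K4me3 fold enrichment was 58.4 in replicate 1 and 6.39 in replicate 2. H3K27ac was at 50.5% and 60.2% of the 4230, close to the values of all BRD2-absent intervals. Gaps to the nearest other H3K4me3 interval were more widely spread in the BRD2-absent group, with a median of 16316 bp and an upper quartile of 70405 bp, against 21806 and 55474 bp. A neighbour within 1000 bp was found for 25.5% against 9.77%.

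The single intervals below were chosen by width or strength, which the choice of intervals partly set, and their coordinates are in hg19. The widest BRD2-absent interval, of 6594 bp, lay on chromosome X, positions 23798826 to 23805419. Its H3K4me3 fold enrichment was 75.4 and 82.0, and that of H3K27ac was 53.4 and 42.1, while the nearest BRD2 peak was 9300 bp away. H4K5acK8ac stood at 12.998 and 9.14, H4K12ac at 2.34 and 3.11, and H4K8ac at 3.91 in replicate 1 with no peak in replicate 2. The next in width lay on chromosome 6, positions 27634916 to 27641259, on chromosome 1, positions 205285164 to 205291079, on chromosome 22, positions 36231107 to 36236579, and on chromosome 1, positions 228642959 to 228648375.

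All 5 of these widest intervals had H3K27ac, H4K5acK8ac, H4K5ac, H4K12ac and H3K4me1 in both lists, but 1 of 5 had H4K8ac in both. H3K36me3 was present in both lists at 3 of the 5. In both lists, H4K8ac was at 14.6% of BRD2-absent and 53.6% of all intervals, and H3K36me3 at 7.68% and 14.2%. Each of the other marks was in both lists at 76.5% to 83.8% of all intervals. The 5 widest BRD2-shared intervals, of 11996 to 13235 bp, had all 5 acetylation marks in both lists. H4K5acK8ac fold enrichment in replicate 1 was 7.07 to 12.998 at the widest BRD2-absent and 37.3 to 63.0 at the widest BRD2-shared intervals, and in replicate 2 it was 5.43 to 9.14 against 26.2 to 52.9. H4K12ac was at 2.34 to 5.15 against 6.62 to 16.6 in replicate 1 and 2.80 to 4.66 against 7.02 to 14.5 in replicate 2. The values of neither mark overlapped between the sets in either library. Those of H3K27ac did not overlap in replicate 1, at 17.03 to 53.4 against 53.9 to 89.4, but did in replicate 2, at 16.2 to 61.2 against 49.8 to 71.4. The BRD2-absent set was narrower, at 5417 to 6594 bp. Each value is that of the strongest peak meeting the interval, and wider intervals can meet more peaks. The 2 sets were not compared at equal width.

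The 5 BRD2-absent intervals with the strongest H3K4me3 had fold enrichments of 110.5 to 111.6 in replicate 1 and 118.1 to 122.9 in replicate 2, near the list maxima of 112.6 and 123.4. They lay on chromosome 19 (positions 1883635 to 1885894), on chromosome X (153607524 to 153609487 and 149105522 to 149107516), on chromosome 3 (50364475 to 50366455) and on chromosome 8 (1711837 to 1713304). Each had H3K27ac, at 18.3 to 86.9 fold over both libraries, and H4K5acK8ac, at 7.41 to 23.5 fold. Over all intervals, H3K27ac was in both lists at 76.9% and H4K5acK8ac at 83.2%. H4K8ac was called in replicate 1 at all 5 and in replicate 2 at 1, against 76.4% and 55.4% of all intervals. Their nearest BRD2 peaks were between 339 and 20958 bp away.

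Some BRD2-absent intervals carried clear H3K4me3 and no other called peak among the targets. The widest with none of the 7 marks, of 4557 bp, lay on chromosome 4, positions 134069946 to 134074502, with H3K4me3 at 31.1 and 29.7 fold and the nearest BRD2 peak 803186 bp away. The second, of 1440 bp, lay on the same chromosome, positions 175749752 to 175751191, with H3K4me3 at 40.8 and 44.1 fold. On chromosome 22 the set held positions 17601546 to 17602708, on chromosome 8 it held 72273693 to 72274791, and on chromosome 6 it held 32489429 to 32490475, with H3K4me3 between 19.5 and 38.5 fold. All 5 exceeded the median H3K4me3 fold enrichment of BRD2-absent intervals in both libraries, 15.2 and 15.4. They were chosen as the widest and do not stand for the 420 intervals with none of the 7 marks. Those 420 had a median width of 433.5 bp and lower median H3K4me3 fold enrichments, 7.15 and 7.94.

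The opposite set had all 7 marks in both lists without BRD2. Its widest interval was the one on chromosome 1 at positions 228642959 to 228648375, of 5417 bp, where H3K27ac stood at 47.9 and 38.1 fold and H3K36me3 at 4.13 and 3.14 fold. Chromosome 2 held the second, at positions 172964687 to 172968590, and chromosome 6 the next, at 44230245 to 44233640. Chromosome 16 held one at 29830608 to 29833790, and chromosome 19 one at 3575947 to 3579030. The nearest BRD2 peak was 12669 bp from the widest interval and between 188 and 2168 bp from the other 4. H4K8ac stood at 2.82 to 4.14 fold and H4K12ac at 3.30 to 5.62 fold over both libraries of these 5.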

How the data were processed

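Each of 22 libraries had its own headerless narrowPeak list, and replicates were not pooled as far as the file names tell. Per the submitters' processing notes, BWA, MACS2 and hg19 were used, with versions, settings and control not given in the sources used here. The authors' lists give each peak's fold enrichment, a ratio to local background, and its −log10 p and −log10 q as deposited. The authors' score, the whole part of 10 times −log10 p, was not used. Fold enrichment was read only within a list, and the highest value among the peaks overlapping an interval was taken. No annotation of hg19 was used, so genes, sequences and cell type markers were not analysed here.

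Intervals and overlaps of at least 1 bp were computed in Python (3.11.15) using pandas 2.3.3, scipy 1.17.1 and numpy 2.4.6. Plots used matplotlib 3.10.9. The scripts were tested on simulated data. A share is the percent of intervals meeting a peak of the library, with Wilson 95% intervals. Equal-width comparison used bins with edges at 300, 500, 800, 1200 and 2000 bp. Distances are gaps to the nearest interval or peak. Named regions were the 5 widest BRD2-absent intervals, the 5 with the highest H3K4me3 fold enrichment (lower of both lists), the 5 widest with none and with all of the 7 marks, and the 5 widest BRD2-shared intervals, plus the chromosomes of highest and lowest share. The members and lists were chosen with earlier results of these data known. Replicate numbers follow the titles, with which the description of 1 H3K9me3 library disagrees. Alternatives were other significance thresholds, 1 replicate left out, replicate-numbered pairing, uncut peaks, other overlap rules, windows of equal size and standardization.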

Additional observations from a re-analysis of the deposited data

Results flagged for a closer look

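H3K36me3 at equal width was 1.33 points higher in BRD2-absent than in BRD2-shared intervals (mean of the libraries, 1.24 and 1.42), whereas H4K5acK8ac, H4K5ac, H4K8ac, H4K12ac, H3K27ac and H3K4me1 were lower in both libraries. The opposite direction drew attention to it, and the difference between marks was not tested. The value was −3.45 points at equal width with the 535 neighbours of BRD2-shared intervals left out of the BRD2-absent group only, and −3.30 at equal H3K4me3 rank.

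H3K4me1 covered the interval midpoint 24.0 points more often in BRD2-absent intervals (mean of the libraries, 18.2 and 29.9), while it overlapped fewer of the intervals as a whole. Within width bins the midpoint was covered less often in BRD2-absent intervals in all 4 bins up to 1200 bp, by −11.0 to −40.2 points in replicate 1 and −17.9 to −29.5 in replicate 2, and more often in both wider bins. H3K36me3 covered the midpoint 4.00 points more often (4.14 and 3.87). In intervals over 2000 bp it did so less often, by −2.42 and −2.29 points, and in every narrower bin more often. All 5 acetylation marks covered the midpoint less often in both libraries, by between −22.2 points (H4K8ac, replicate 2) and −52.2 points (H3K27ac, replicate 1). These opposite directions were not tested.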

How the results depend on the processing

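Of 121 alternatives over 9 results, 70 stayed within 1.5 times the count or within 1 SD between libraries, 45 moved further and 6 reversed. In 99 of 105 alternatives the difference in share stayed below 0. The reversals concerned 2 marks. H3K4me1 became 8.61 points higher in BRD2-absent intervals when at least 50% of the interval had to be covered and 24.7 points higher in a window of 250 bp on each side of the midpoint. H3K36me3 became 4.32 and 4.23 points higher under the same settings, 1.33 at equal width and 1.77 at equal width and H3K4me3 rank.

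Keeping peaks with −log10 q of at least 5 gave 9379 members and a width ratio to BRD2-shared intervals of 0.576, from 0.309. Share differences became −28.1 (H4K5acK8ac), −56.8 (H4K8ac), −65.9 (H4K12ac), −35.7 (H3K27ac) and −25.0 points (H3K36me3). At q of at most 0.05, H4K5ac gave −39.3 and H3K36me3 −20.2. Using 1 replicate of every target, members numbered 5677 to 8753 and the width ratio was 0.322 to 0.463. With 1 replicate the ranges were −33.1 to −26.9 for H4K5acK8ac, −43.1 to −27.1 for H4K5ac, −54.5 to −40.9 for H4K8ac, −52.0 to −34.9 for H4K12ac, −39.2 to −34.1 for H3K27ac, −23.1 to −16.6 for H3K4me1 and −18.4 to −13.6 for H3K36me3.

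Taking equal replicate numbers as a replicate block, that is averaging the values of replicate 1 alone and replicate 2 alone, gave a mean of 7215 members and mean differences of −30.0 (H4K5acK8ac), −35.1 (H4K5ac), −47.7 (H4K8ac), −43.4 (H4K12ac), −36.6 (H3K27ac) and −16.0 points (H3K36me3). The numbers are not known to pair the libraries: over 21 pairs of marks, the correlation of replicate deviations ran from −0.0194 to 0.154, with 3 above 0.1.

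With at least 50% of the interval covered, the differences were −46.7 (H4K5acK8ac), −48.9 (H4K5ac), −24.8 (H4K8ac), −43.4 (H4K12ac) and −52.7 (H3K27ac). In the 250 bp window they were −45.0 (H4K5ac), −45.5 (H4K8ac) and −52.3 (H4K12ac). Uncut peaks without BRD2 gave −41.8 (H4K5ac), −52.9 (H4K12ac) and −20.5 (H3K36me3). Settings chosen after seeing the data gave −64.5 (H4K8ac) and −3.30 (H3K36me3) at equal H3K4me3 rank. Without members within 1000 bp of BRD2-shared intervals they gave −52.8 (H4K12ac) and −21.7 (H3K36me3), and at equal width also −41.4 (H4K5ac), −51.9 (H4K12ac) and −3.45 (H3K36me3). The cause of these shifts was not tested.

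Depth is unknown, so the absence of a peak is not evidence that a protein or mark is absent. The thresholds were applied to all lists at once, and BRD2 alone was not varied. Treatment of the libraries with JQ1 or DMSO is not given by the labels and could not be separated.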

Other observations

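The share of H3K4me3 intervals without BRD2 or repressive peaks varied between chromosomes. It was highest on chromosome 4, where 302 of 811 intervals were BRD2-absent (37.2%, Wilson 95% interval 34.0 to 40.6), and lowest on chromosome 20, where 82 of 607 were (13.5%, 11.0 to 16.5). The share over all chromosomes was 22.3%. BRD2-absent intervals on chromosome 4 had H3K27ac at 45.4% and 52.6% and H4K5acK8ac at 47.4% and 56.3%. Those on chromosome 20 had H3K27ac at 46.3% and 59.8%. On chromosome 19, chosen after its values were seen, they carried H3K27ac at 79.3% and 83.4% and H4K5acK8ac at 80.9% and 87.1%.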
